A study of Mus musculus with 9 samples.

Results

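Chemokines and chemokine receptors were followed in the atherosclerotic aorta of mice across 3 treatments. The genes were chosen by name: every symbol of the array's annotation that began with Ccl, Cxcl, Cx3cl, Xcl, Ccr, Cxcr, Cx3cr or Xcr and went on with a number. The rule used no measured value. It found 56 symbols, of which 50 had a probe set of their own among 18193 genes measured in all. These 50 were 33 ligands and 17 receptors. The other 6 symbols (Ccl19, Ccl21a, Ccl21b, Ccl21c, Ccl21d and Ccl27b) were annotated only to probe sets that also carry other genes, and they got no value.

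All mice were female, lacked apolipoprotein E (genotype Apoe-/-, C57BL/6 background), carried an age label of 8 weeks, and were fed 0.2% cholesterol and 10% coconut oil for 30 weeks, a model that develops atherosclerotic plaques. They received 1 injection into the tail vein and were killed 10 days later. The HDAd-gE3 group received a helper-dependent adenovirus (a vector stripped of its viral genes) with human apolipoprotein E3 at 5e12 viral particles per kg. The HDAd-0 group received the empty vector at the same dose, and the PBS group received phosphate-buffered saline. Each array held RNA from 3 pooled aortas, dissected between aortic sinus and arch, and a group had 3 arrays, so the spread between arrays is a spread between pools. The human transgene's own level was not analysed here. The title of the series concerns how interleukin-7 promotes the arrest of monocytes on endothelial cells.

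Chemokines are small secreted proteins that bind G protein-coupled receptors on leukocytes and steer where those cells go. In mouse models of atherosclerosis the Ccl2 receptor Ccr2 and the fractalkine receptor Cx3cr1 are known for bringing monocytes from blood into the plaque, and Cxcr2 ligands for drawing neutrophils. Other ligands, such as Cxcl12, which binds Cxcr4, are made steadily by stromal and endothelial cells. Many inflammatory chemokines are switched on through the transcription factor NF-kB.

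The deposited values were log2 signals from RMA, a method that makes the arrays' distributions alike, so differences are read against the bulk of the genes. Array pairs correlated at 0.991 or above. The 3' minus 5' signal of control genes, a sign of RNA quality, was 0.67 to 0.81 with HDAd-gE3, 0.76 to 1.08 with HDAd-0 and 0.78 to 0.92 with PBS. HDAd-0 replicates 4 and 5 gave the highest of all 9 values for 15 and 13 of the 50 genes, against 19.2% and 11.5% of all genes. Running numbers in the sample titles are separate for each group. Should they be the order in which arrays were processed, order and group cannot be told apart. The 95th percentile of 39 olfactory receptor genes marked dim signal here, and is called the top of the olfactory receptor range. All 10 smooth muscle markers and all 17 monocyte and macrophage markers had means above it. Markers of heart muscle, which borders the aortic sinus, were present too (7 of 7), with a summed log2 signal of 15.96 to 16.03 with PBS, 14.98 to 15.63 with HDAd-0 and 15.47 to 16.34 with HDAd-gE3.

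The chemokine signals covered nearly the whole scale. The 10 brightest genes were Ccl6, Cxcl12, Ccl9, Ccl8, Cxcr4, Cxcl16, Cxcl13, Ccl2, Ccl3 and Ccl12. Their means over all arrays ran from 13.07 for Ccl6 to 10.51 for Ccl12, where the median gene read 8.58. At the dim end, 8 genes (Ccl20, Ccl1, Xcr1, Cxcl11, Ccr3, Ccr4, Ccr8 and Ccr1l1) did not exceed 4.42, the 95th percentile of 39 olfactory receptor genes. The other 42 did, and 83.1% of all genes did. Probe sets differ in how well they bind, so the order of signals is not an order of RNA amounts.

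**Figure D1:**
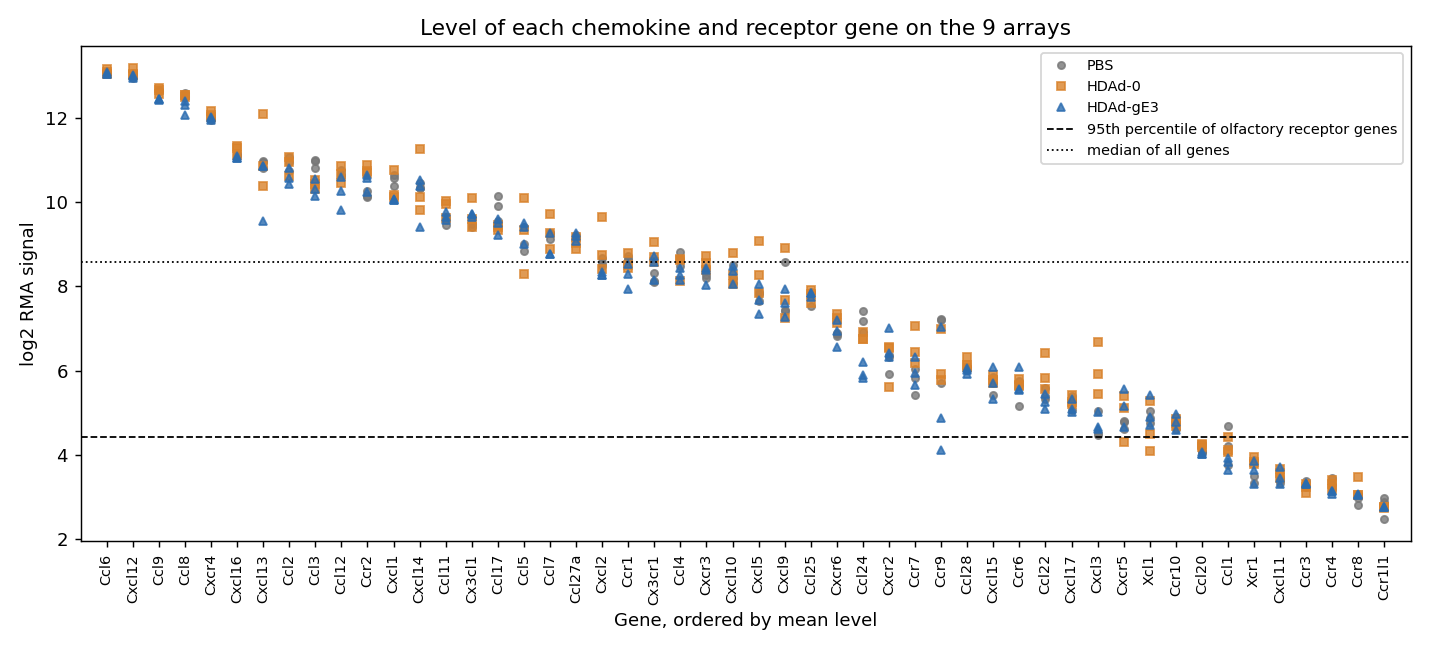
Log2 RMA signal (vertical axis) of the 50 chemokine and receptor genes (horizontal axis, ordered by mean) on each of the 9 arrays, with PBS as grey circles, HDAd-0 as orange squares and HDAd-gE3 as blue triangles. The dashed line at 4.42 is the 95th percentile of the olfactory receptor genes, which 8 genes do not exceed, and the dotted line at 8.58 is the median gene.

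Among the 50 genes, 1 passed the test in any comparison. Ccl24 (eotaxin-2), a ligand of the eosinophil receptor Ccr3 that macrophages are known to make, fell with HDAd-gE3 against PBS. It read 6.91, 7.18 and 7.42 on the PBS arrays, 6.92, 6.74 and 6.75 on the HDAd-0 arrays and 6.20, 5.83 and 5.88 on the HDAd-gE3 arrays. All 3 HDAd-gE3 values lay below the other 6, while the HDAd-0 and PBS values overlapped. The difference between HDAd-gE3 and PBS was -1.20 ± 0.14 (log2, SE), a signal 2.30-fold lower, with an adjusted p of 0.0315 in limma. Across all genes 0.126% passed in that comparison. HDAd-gE3 against HDAd-0 gave -0.83 ± 0.14 (unadjusted p = 0.000281, adjusted p = 0.191) and HDAd-0 against PBS gave -0.37 ± 0.14 (unadjusted p = 0.0305, adjusted p = 0.333), which was -0.24 without PBS replicate 4. The 3 comparisons share arrays pairwise, so their values are not independent of each other. With 1 array left out, the call ended in 8 of 9 fits: the adjusted p was 0.0845, 0.166 and 0.117 without PBS replicate 1, 3 and 4, 0.0592 and 0.0501 without HDAd-0 replicate 4 and 5, and 0.0796, 0.119 and 0.116 without HDAd-gE3 replicate 2, 3 and 4. It was also lost with only the 2 groups in the fit (0.066), with a covariate for the 3' minus 5' signal (0.125) and with the replicate number as a block (0.388). It held without HDAd-0 replicate 3 (0.0437), and the difference stayed between -1.44 and -1.07 under every alternative run on it.

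In bulk tissue, fewer cells of a type and less RNA per cell cannot be told apart. Monocyte and macrophage markers moved the same way as Ccl24, by smaller amounts, in the 2 comparisons of HDAd-gE3. With HDAd-gE3, 17 of 17 were lower than with HDAd-0, by a median of -0.17 (61.7% of all genes were lower). Against PBS, 15 of 17 were lower, by a median of -0.08 (54.6% of all genes). With HDAd-0 against PBS they went the other way from Ccl24 (-0.37): 15 of 17 were higher, by a median of 0.05 (57.6% of all genes were higher). Their summed log2 signal was 16.50 to 16.55 with PBS, 16.56 to 16.58 with HDAd-0 and 16.42 to 16.46 with HDAd-gE3. The part of macrophage content in the Ccl24 result was not tested.

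The chemokine genes as a group read lower with HDAd-gE3 than with the empty vector. Of the 50 genes, 39 had a lower mean and 11 a higher one, where 61.7% of all genes were lower and 38.3% higher, and the median difference was -0.19 against -0.04 over all genes. At an unadjusted p under 0.05, 13 genes were lower and 0 higher, where 9.40% of all genes were lower and 3.46% higher. On 14 genes every HDAd-gE3 array lay below every HDAd-0 array, against 12.0% of all genes, and the reverse held for 0, against 4.25%. None passed the adjusted threshold, which 0.00550% of all genes (1 gene) passed. The 13 were Ccl24, Cxcl3, Ccl20, Ccl9, Ccl22, Ccl8, Cxcl16, Ccr2, Cxcl2, Ccl28, Cxcl5, Cxcr6 and Ccl12. The count was 8 without PBS replicate 3 and 7 without HDAd-gE3 replicate 2, with 17 as the highest without any 1 array.

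The comparison between the vectors and that of the empty vector with saline use the same HDAd-0 arrays, so their directions are not independent. With the empty vector against saline, more of the chemokine genes were higher than lower, as over all genes. Here 33 of the 50 genes had a higher mean with HDAd-0 and 17 a lower one, where 57.6% of all genes were higher and 42.4% lower, and the median was 0.09 against 0.02. At an unadjusted p under 0.05, 8 genes were higher (Ccr2, Cxcl3, Cx3cr1, Ccr7, Ccl20, Ccl11, Cxcr6 and Ccl22) and 3 lower (Ccl3, Ccl17 and Ccl24), where 8.50% and 4.39% of all genes were. The groups did not overlap for 7 higher and 2 lower genes, against 11.8% and 7.00% of all genes. None passed the adjusted threshold, which 0.0660% of all genes passed. The count of 11 was 6 without PBS replicate 4. By kind, 12 of 17 receptors were higher, with a median of 0.17, and 4 were higher and 0 lower past the unadjusted threshold. Of 33 ligands, 21 were higher, with a median of 0.07, and 4 were higher and 3 lower past it.

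Markers of other tissues moved with these comparisons. With HDAd-0 against PBS, 7 of 7 liver markers were higher (median 1.46, 5 at an unadjusted p under 0.05), as were 6 of 8 skeletal muscle markers (median 1.08, 5 at that threshold) and 3 of 4 erythroid markers (median 1.06, all 3 at it), while 7 of 7 heart muscle markers were lower (median -0.76, all 7 at it). Of all genes, 57.6% were higher and 42.4% lower in that comparison, with 8.50% and 4.39% at that threshold. The summed log2 signal of the liver markers was 10.78 to 11.11 with PBS, 11.67 to 13.35 with HDAd-0 and 11.03 to 12.17 with HDAd-gE3. That of skeletal muscle was 10.22 to 10.84, 9.72 to 11.35 and 9.04 to 10.32, and that of the erythroid genes 11.68 to 12.00, 12.52 to 13.02 and 12.97 to 13.41. Between the vectors, 7 of 7 liver and 7 of 8 skeletal muscle markers were lower with HDAd-gE3, where 61.7% of all genes were. There 7 of 7 heart muscle markers (median 0.61) and 3 of 4 erythroid markers were higher, where 38.3% of all genes were. The part of these markers in the chemokine values was not tested.

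HDAd-gE3 against PBS was nearly even in direction, with 22 genes higher (45.4% of all genes), 28 lower (54.6% of all genes) and a median of -0.03 against -0.02 over all genes. Past an unadjusted p of 0.05 there were 1 higher gene (Ccr2) and 10 lower (Ccl24, Ccl3, Ccl9, Ccl8, Cxcl1, Ccl17, Ccr1, Ccl12, Ccl4 and Ccr4), where 5.94% and 7.27% of all genes were. Every array separated the groups for 1 higher and 10 lower genes, against 10.8% and 13.2%. The count of 11 was 5 without PBS replicate 3 and 7 without HDAd-gE3 replicate 4. Among the 20 members above the median gene the median difference was -0.24, against -0.01 for all 9096 genes above it.

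**Figure D2:**
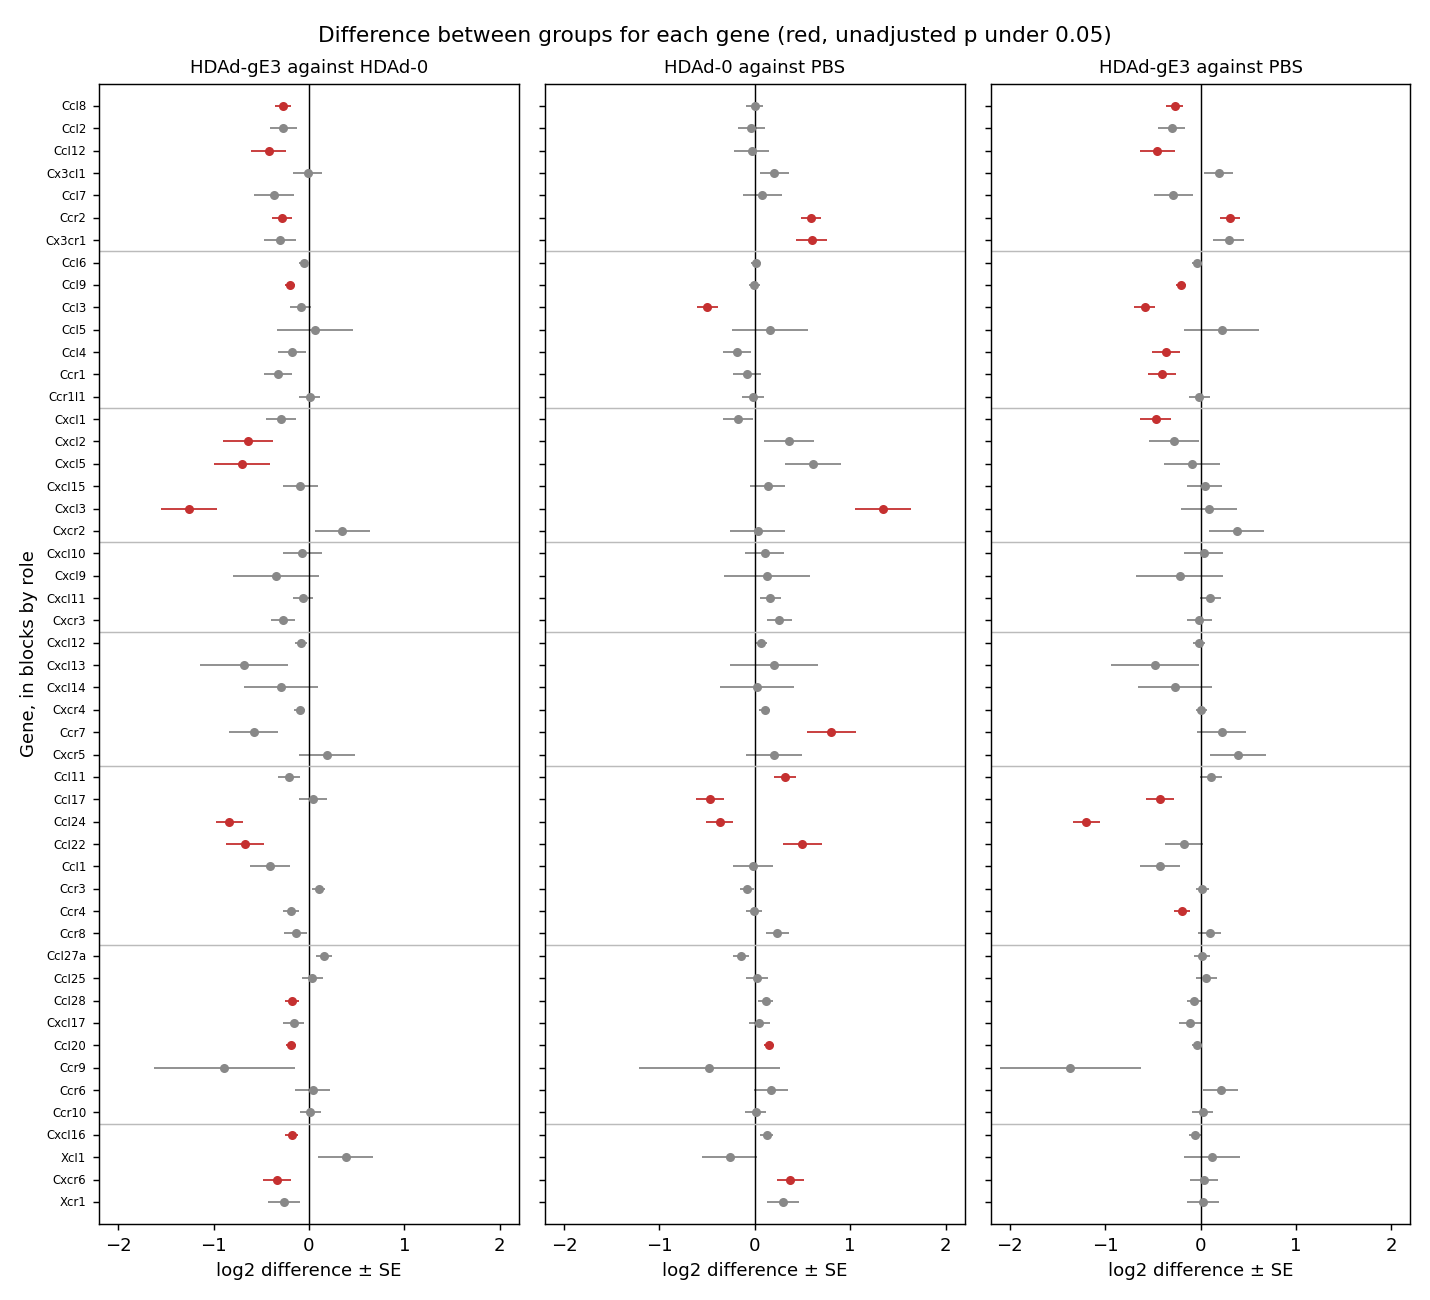
Difference in mean log2 signal (horizontal axis, point) with its SE (line) for each of the 50 genes (vertical axis, in blocks by role) in the 3 comparisons, red where the unadjusted limma p is under 0.05. In HDAd-gE3 against HDAd-0 all 13 red points lie left of 0; in HDAd-0 against PBS 8 of 11 lie right of it.

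**Figure D3:**
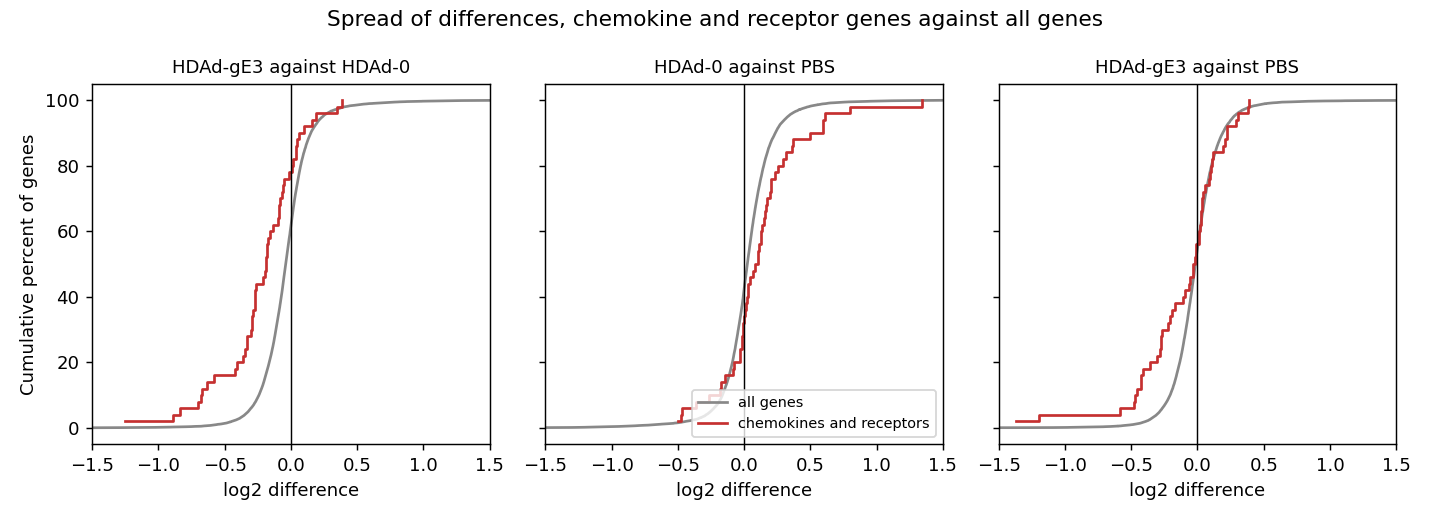
Cumulative percent (vertical axis) of the 50 chemokine and receptor genes (red) and of all 18193 genes (grey) by log2 difference (horizontal axis) in the 3 comparisons. In HDAd-gE3 against HDAd-0 the red line lies left of the grey one over most of its range (median -0.19 against -0.04).

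The monocyte-recruiting genes divided into ligands and receptors. Ccr2, which lets monocytes leave the bone marrow and enter tissue, read 10.26, 10.12 and 10.13 with PBS, 10.73, 10.69 and 10.87 with HDAd-0 and 10.24, 10.63 and 10.57 with HDAd-gE3. The HDAd-0 arrays lay above all others, and the HDAd-gE3 arrays overlapped with PBS through replicate 2. HDAd-0 exceeded PBS by 0.59 ± 0.11 (unadjusted p = 0.00043, adjusted p = 0.123 in limma). HDAd-gE3 lay 0.29 below HDAd-0 (difference -0.29 ± 0.11, adjusted p = 0.341, and -0.16 without HDAd-gE3 replicate 2) and 0.31 ± 0.11 above PBS (adjusted p = 0.287). The other 3 probe sets of Ccr2 gave 0.41, 0.63 and 0.45 for HDAd-0 against PBS, and -0.39, -0.12 and -0.06 for HDAd-gE3 against HDAd-0, the same directions.

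Cx3cr1, the fractalkine receptor of monocytes and tissue macrophages, read 8.12, 8.32 and 8.09 with PBS, 8.58, 9.05 and 8.69 with HDAd-0 and 8.14, 8.71 and 8.57 with HDAd-gE3. As for Ccr2, HDAd-0 lay above PBS on every array, here by 0.60 ± 0.17 (unadjusted p = 0.00631, adjusted p = 0.221), and HDAd-gE3 replicate 2 was the low array of its group. A second, dimmer probe set of Cx3cr1 gave 0.19. Its ligand Cx3cl1, a chemokine that endothelium carries on its surface, read 9.61, 9.48 and 9.41 with PBS, 9.60, 10.09 and 9.41 with HDAd-0 and 9.71, 9.65 and 9.71 with HDAd-gE3. HDAd-0 replicate 4 was the high array, and the HDAd-0 values overlapped with both other groups. Its other 3 probe sets gave 0.06, -0.34 and -0.19 for HDAd-gE3 against PBS, where this one gave 0.19, so its probe sets disagree. Endothelial markers were higher with HDAd-0 than with PBS for 13 of 14 genes (57.6% of all genes were), 2 of them past the adjusted threshold. Their summed log2 signal was 14.28 to 14.35 with PBS, 14.59 to 14.78 with HDAd-0 and 14.37 to 14.47 with HDAd-gE3, and their part in the receptor values was not tested.

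The ligands of Ccr2 overlapped between PBS and HDAd-0. Ccl2, the main one, read 10.94, 11.06 and 10.72 with PBS, 10.62, 11.06 and 10.94 with HDAd-0 and 10.43, 10.81 and 10.57 with HDAd-gE3, and all groups overlapped. Ccl12, a mouse relative of Ccl2, read 10.61, 10.66 and 10.75 with PBS, 10.44, 10.84 and 10.65 with HDAd-0 and 9.81, 10.59 and 10.26 with HDAd-gE3. Every HDAd-gE3 value of Ccl12 was below every PBS value, with replicate 3 nearly level with them, and replicate 2 was the lowest. The difference was -0.45 ± 0.18 against PBS (adjusted p = 0.341) and -0.42 ± 0.18 against HDAd-0. Without HDAd-gE3 replicate 2 these were -0.25 and -0.22.

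Ccl8, which attracts monocytes and T cells, read 12.48, 12.51 and 12.58 with PBS, 12.54, 12.48 and 12.55 with HDAd-0 and 12.39, 12.31 and 12.06 with HDAd-gE3. The HDAd-gE3 arrays lay below the other 6, with a difference of -0.27 ± 0.09 against either group (adjusted p = 0.291 against HDAd-0 and 0.254 against PBS). Without HDAd-gE3 replicate 4, the lowest, it was -0.17 against HDAd-0 and -0.18 against PBS. Ccl7, another Ccr2 ligand, differed by -0.36 ± 0.21 between HDAd-gE3 and HDAd-0 with overlapping arrays. Across the 7 genes of this set, 7 means were lower with HDAd-gE3 than with HDAd-0, 3 of them at an unadjusted p under 0.05, and the median was -0.29. Of all genes, 61.7% were lower and 9.40% were lower at that threshold.

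Among the inflammatory Ccl ligands of macrophages, Ccl3 stood with saline against both vectors. Ccl3, which binds Ccr1, read 10.79, 10.97 and 10.98 with PBS, 10.43, 10.29 and 10.53 with HDAd-0 and 10.15, 10.55 and 10.29 with HDAd-gE3. Both vector groups lay below all PBS arrays and overlapped with each other. The difference was -0.50 ± 0.11 for HDAd-0 (unadjusted p = 0.00183, adjusted p = 0.158) and -0.58 ± 0.11 for HDAd-gE3 (unadjusted p = 0.000654, adjusted p = 0.093) against PBS, and -0.09 ± 0.11 between the vectors. The HDAd-gE3 difference from PBS passed with genes below the median level left out of the fit (adjusted p = 0.0323). It also passed with array weights (0.0397) and, narrowly, with an intensity trend. It did not pass under the other alternatives. Its adjusted p was 0.388 with the replicate number as a block and 0.227 with the 3' minus 5' covariate. Without 1 array it lay between 0.0844 and 0.313. Ccl4, the close relative of Ccl3, differed by -0.36 ± 0.15 between HDAd-gE3 and PBS (adjusted p = 0.351), and HDAd-0 against PBS gave -0.18 ± 0.15.

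Ccl9, a Ccr1 ligand of myeloid cells, varied little within groups on its brightest probe set. It read 12.64, 12.65 and 12.63 with PBS, 12.64, 12.71 and 12.55 with HDAd-0 and 12.44, 12.44 and 12.42 with HDAd-gE3. The HDAd-gE3 arrays lay below the other 6, by a difference of -0.20 ± 0.06 against each group, a fold of 1.15 (adjusted p = 0.259 against HDAd-0 and 0.216 against PBS). A second, dimmer Ccl9 probe set gave -0.15 against HDAd-0 and -0.12 against PBS, with SDs within groups of 0.03 to 0.14. Ccl6, a related myeloid chemokine, read between 13.03 and 13.16 on all arrays and differed by -0.05 ± 0.05 between the vectors. A second Ccl6 probe set, which may match other transcripts, differed by -0.22 there and by -0.26 between HDAd-gE3 and PBS, so the readings of Ccl6 are unequal.

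The receptor Ccr1 read 8.63, 8.71 and 8.62 with PBS, 8.51, 8.78 and 8.43 with HDAd-0 and 7.93, 8.52 and 8.29 with HDAd-gE3. Its HDAd-gE3 arrays lay below those of PBS, by -0.41 ± 0.15 (adjusted p = 0.297), and overlapped with HDAd-0. Without HDAd-gE3 replicate 2 the difference was -0.25. Ccl5, made by T cells and platelets, read 8.83, 9.01 and 9.40 with PBS, 9.34, 8.28 and 10.09 with HDAd-0 and 8.99, 9.50 and 9.41 with HDAd-gE3. The HDAd-0 arrays alone spanned more than the other groups together. Ccr1l1, a relative of Ccr1, was not above the olfactory receptor range, and its means differed by at most 0.02.

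Among the 5 neutrophil-attracting Cxcl ligands measured, Cxcl1, Cxcl2 and Cxcl3 shared an element in sequence. The 120 bases before the annotated start of Cxcl1 (chr5:90891125-90891244), Cxcl2 (chr5:90903779-90903898), Cxcl3 (chr5:90785981-90786100) and, for contrast, the epithelial chemokine Ccl20 (chr1:83116646-83116765) are shown from RefSeq (GRCm38.p6, plus strand), because the first 3 lie close together on chromosome 5 and all 4 are known NF-kB targets. Capitals mark matches, on either strand, to a form of the NF-kB motif: GGGA, then any 4 bases, then CC.
Cxcl1: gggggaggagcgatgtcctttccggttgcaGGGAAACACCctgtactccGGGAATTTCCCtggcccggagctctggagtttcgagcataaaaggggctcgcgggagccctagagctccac
Cxcl2: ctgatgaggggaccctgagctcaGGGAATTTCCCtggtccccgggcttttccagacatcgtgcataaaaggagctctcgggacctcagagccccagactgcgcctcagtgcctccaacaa
Cxcl3: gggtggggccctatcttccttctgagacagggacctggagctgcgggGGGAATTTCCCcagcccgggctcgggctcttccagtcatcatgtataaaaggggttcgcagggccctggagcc
Ccl20: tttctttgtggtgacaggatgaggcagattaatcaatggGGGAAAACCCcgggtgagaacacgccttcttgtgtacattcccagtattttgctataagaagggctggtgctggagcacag
Cxcl1, Cxcl2 and Cxcl3 each held the same 11 bases, GGGAATTTCCC, in which a match on each strand overlaps, starting 71, 97 and 73 bases before the start. Cxcl1 held a further match, GGGAAACACC, and Ccl20 held GGGAAAACCC. The window of Cxcl15 held no match to these letters, and no window of Cxcl5 is described here. A match is a description of the letters and not a measured site. In the 250 bases before the start, 15 of 37 members with a window held the motif (40.5%), against 19.7% of the 27025 genes with a window. It did not sort the members by result: of the 10 with a window that were lower at an unadjusted p under 0.05 with HDAd-gE3 than with HDAd-0, 4 held it (Ccl20, Ccl22, Cxcl2 and Cxcl3, 40.0%), and of the other 27, 11 held it (40.7%).

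Of these ligands, Cxcl3 differed most. It read 5.03, 4.48 and 4.52 with PBS, 5.46, 6.69 and 5.91 with HDAd-0 and 4.66, 5.01 and 4.62 with HDAd-gE3. The HDAd-0 arrays lay above all others, led by replicate 4, and the other groups overlapped near the dim end of the scale. HDAd-0 exceeded PBS by 1.34 ± 0.29 (unadjusted p = 0.00146, adjusted p = 0.153), and HDAd-gE3 differed from HDAd-0 by -1.26 ± 0.29 (unadjusted p = 0.00222, adjusted p = 0.205), folds of 2.53 and 2.39. Without HDAd-0 replicate 4 these were 1.01 and -0.92.

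Cxcl2 and Cxcl5, described here after their values were seen, had the same high array. Cxcl2 read 8.68, 8.55 and 8.49 with PBS, 8.41, 9.64 and 8.74 with HDAd-0 and 8.34, 8.27 and 8.27 with HDAd-gE3. HDAd-gE3 was below both groups on every array, and its difference from HDAd-0 was -0.64 ± 0.26 (adjusted p = 0.37), or -0.28 without HDAd-0 replicate 4. Cxcl5 read 7.82, 7.66 and 7.87 with PBS, 7.85, 9.08 and 8.26 with HDAd-0 and 7.68, 8.06 and 7.34 with HDAd-gE3, a difference of -0.70 ± 0.29 (adjusted p = 0.372) with overlapping arrays, or -0.36 without HDAd-0 replicate 4.

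Cxcl1 read 10.57, 10.65 and 10.37 with PBS, 10.17, 10.76 and 10.12 with HDAd-0 and 10.08, 10.04 and 10.05 with HDAd-gE3. Its HDAd-gE3 arrays were nearly equal and below the other 6, at -0.47 ± 0.16 against PBS (adjusted p = 0.276) and -0.29 ± 0.16 against HDAd-0. The other Cxcl1 probe sets gave -0.505 and -0.45 against PBS (unadjusted p = 0.0593 and 0.0751 in limma), and -0.29 and -0.27 against HDAd-0. The brightest Cxcl1 probe set is of a type that may also match related transcripts. Their receptor Cxcr2, which marks neutrophils, read 6.33, 6.38 and 5.91 with PBS, 6.57, 6.54 and 5.60 with HDAd-0 and 6.42, 7.02 and 6.32 with HDAd-gE3. All groups overlapped. Cxcl15, the lung chemokine of mice, differed by at most 0.13 between group means.

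Neutrophil markers read the other way. With HDAd-gE3, 10 of 11 were higher than with HDAd-0, 6 of them at an unadjusted p under 0.05, by a median of 0.64. Of all genes, 38.3% were higher and 3.46% at that threshold. The markers were uneven: Csf3r differed by 0.02, Lcn2 by -0.015, Stfa2l1 by 0.18 and Mmp8 by 0.23. HDAd-gE3 replicate 4 stood well above its group for Camp (11.91 against 9.46 and 9.64) and Mpo (9.69 against 6.47 and 6.22). The summed log2 signal of the neutrophil markers was 14.59 to 14.77 with PBS, 14.27 to 14.73 with HDAd-0 and 14.94 to 15.46 with HDAd-gE3. Their part in the ligand values was not tested.

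**Figure D4:**
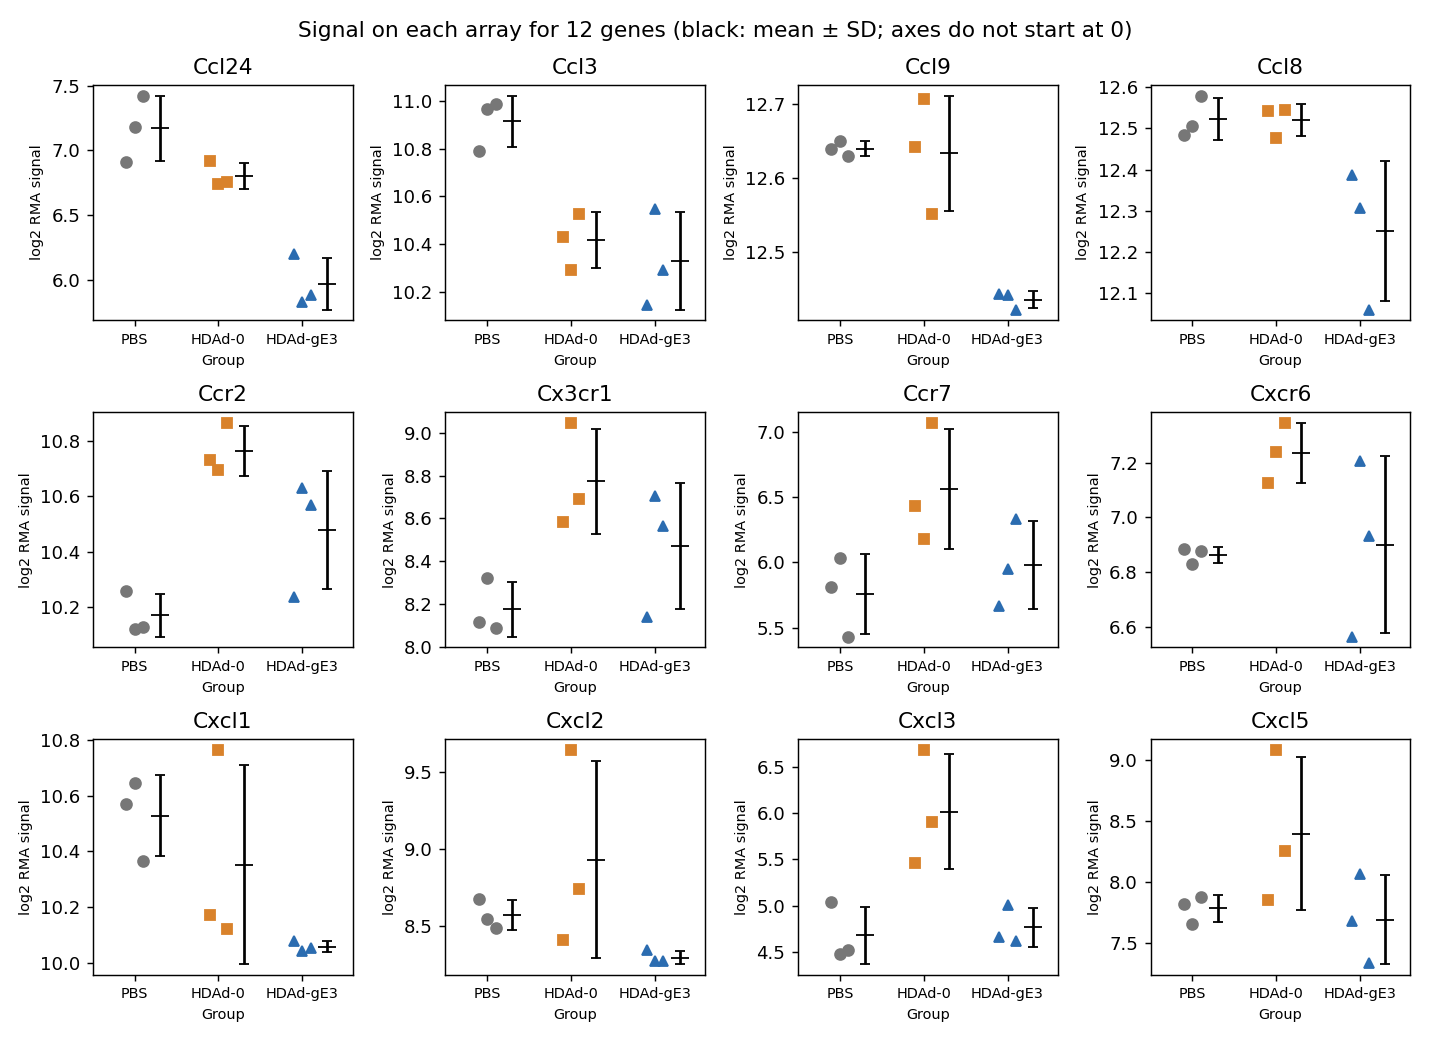
Log2 RMA signal (vertical axes, not starting at 0) on each array for 12 of the genes, by group (horizontal axes), with the mean and SD of 3 arrays in black. Ccl24 falls from a PBS mean of 7.17 to 5.97 with HDAd-gE3, Ccr2 and Cx3cr1 are highest with HDAd-0, and HDAd-0 replicate 4 is the highest square for Cxcl1, Cxcl2, Cxcl3 and Cxcl5.

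The ligands of Ccr3 and Ccr4, tied to eosinophils and type 2 responses, differed in direction from each other. Ccl11 (eotaxin-1), the other eosinophil ligand measured, read 9.57, 9.63 and 9.44 with PBS, 9.95, 9.61 and 10.03 with HDAd-0 and 9.57, 9.63 and 9.77 with HDAd-gE3. HDAd-0 exceeded PBS by 0.32 ± 0.12 (adjusted p = 0.313) with 1 overlapping array, and HDAd-gE3 differed from PBS by 0.11 ± 0.12. The shared receptor Ccr3 was not above the olfactory receptor range.

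Ccl17 and Ccl22 both bind Ccr4, and both come from dendritic cells. Ccl17 read 9.55, 9.90 and 10.14 with PBS, 9.41, 9.34 and 9.44 with HDAd-0 and 9.61, 9.49 and 9.23 with HDAd-gE3, with HDAd-0 below all PBS arrays by -0.47 ± 0.15 (adjusted p = 0.266). Ccl22 read 5.32, 5.60 and 5.39 with PBS, 5.82, 5.57 and 6.42 with HDAd-0 and 5.09, 5.25 and 5.46 with HDAd-gE3. Its HDAd-gE3 arrays lay below those of HDAd-0, by -0.67 ± 0.20 (unadjusted p = 0.00943, adjusted p = 0.273), and HDAd-0 exceeded PBS by 0.50 ± 0.20. Without HDAd-0 replicate 5, the highest, these were -0.43 and 0.26, and with the replicate number as a block -0.34 and 0.20. So the HDAd-0 mean was lower than PBS for the one ligand and higher for the other. Ccr4 itself, Ccl1 and its receptor Ccr8 were not above the olfactory receptor range. Dendritic cell markers summed to 13.21 to 13.27 with PBS, 13.21 to 13.29 with HDAd-0 and 13.12 to 13.13 with HDAd-gE3. With HDAd-0 against PBS 4 of 7 were higher, 2 of them at an unadjusted p under 0.05 (57.6% and 8.50% of all genes), and 3 were lower. The 2 were Flt3 at 0.55 ± 0.10 and Siglech at 0.30 ± 0.09. With HDAd-gE3, 6 of 7 were lower than with HDAd-0, 2 of them at that threshold (61.7% and 9.40% of all genes). The part of these markers in the ligand values was not tested.

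The homing genes ranged from steady to scattered. Cxcl12, the stromal ligand, read between 12.94 and 13.16 on all arrays, and its receptor Cxcr4 between 11.94 and 12.15. Ccr7, which takes dendritic and T cells toward lymph, read 5.81, 6.03 and 5.43 with PBS, 6.44, 6.18 and 7.07 with HDAd-0 and 5.66, 5.95 and 6.33 with HDAd-gE3. HDAd-0 lay above PBS on every array by 0.80 ± 0.26 (unadjusted p = 0.0134, adjusted p = 0.27) and overlapped with HDAd-gE3. All 6 homing genes had a higher mean with HDAd-0 than with PBS, 1 of them at an unadjusted p under 0.05, where 57.6% of all genes were higher and 8.50% at that threshold.

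Cxcl13, the B cell attractant, read 10.94, 10.97 and 10.80 with PBS, 10.86, 12.07 and 10.37 with HDAd-0 and 10.86, 10.86 and 9.55 with HDAd-gE3. HDAd-0 replicate 4 was high and HDAd-gE3 replicate 4 low, and Cxcl14, which is made by stromal and epithelial cells, had the same extreme arrays at 11.25 and 9.40. The pooled SD within groups was 0.67 for Cxcl13 and 0.56 for Cxcl14, above that of 99.3% and 98.6% of all genes. The Cxcl13 receptor Cxcr5 read 4.31 to 5.57 with all groups overlapping.

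The interferon-inducible ligands and their receptor Cxcr3, a receptor of activated T cells, gave no difference at an unadjusted p under 0.05 in any comparison. Cxcl9 was the most scattered: 7.45, 7.41 and 8.58 with PBS, 7.68, 7.25 and 8.91 with HDAd-0 and 7.26, 7.93 and 7.60 with HDAd-gE3. In PBS and in HDAd-0, 1 array stood over 1 log2 unit above the others. Cxcl10 read 8.04 to 8.79, Cxcr3 read 8.02 to 8.71, and Cxcl11 was not above the olfactory receptor range. The 10 T and NK cell markers summed to 11.30 to 11.69 with PBS, 11.24 to 12.04 with HDAd-0 and 11.04 to 11.82 with HDAd-gE3.

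Of the lymphocyte pairs, Cxcr6, a receptor of memory T cells, read 6.88, 6.83 and 6.88 with PBS, 7.13, 7.24 and 7.34 with HDAd-0 and 6.57, 7.21 and 6.93 with HDAd-gE3. HDAd-0 lay above PBS by 0.37 ± 0.14 (adjusted p = 0.333), and the HDAd-gE3 arrays spread across both. A second probe set of Cxcr6 gave 0.68 there, 0.60 for HDAd-gE3 against PBS, where the first gave 0.04, and -0.08 between the vectors. Its ligand Cxcl16, a scavenger receptor for oxidised lipid as well as a chemokine, read 11.14, 11.11 and 11.09 with PBS, 11.11, 11.32 and 11.28 with HDAd-0 and 11.05, 11.09 and 11.03 with HDAd-gE3. HDAd-gE3 lay below HDAd-0 by -0.18 ± 0.07 (adjusted p = 0.331). Xcl1 read 4.09 to 5.42 with overlapping groups, and its receptor Xcr1 was not above the olfactory receptor range.

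The genes of epithelial surfaces were mostly dim. Ccl20, the ligand of Ccr6, read 4.08 on all 3 PBS arrays, 4.26, 4.18 and 4.24 with HDAd-0 and 4.02, 4.02 and 4.08 with HDAd-gE3. HDAd-0 lay above both other groups (-0.19 ± 0.05 between the vectors, unadjusted p = 0.00582, adjusted p = 0.245), but every value lay below the 4.42 of the olfactory receptor genes. Ccr6 read 5.16 to 6.08 with overlapping groups. Ccl28 differed by -0.18 ± 0.07 between the vectors on its brightest probe set, by -0.11 there without HDAd-0 replicate 3, and by 0.07 on each of the other 2. Ccr9, the gut-homing receptor, had the widest scatter, with a pooled SD of 1.08: it read 7.22, 7.20 and 5.70 with PBS, 5.92, 5.78 and 6.98 with HDAd-0 and 4.12, 4.87 and 7.03 with HDAd-gE3. The remaining genes of this set (Ccl25, Ccl27a, Cxcl17 and Ccr10) differed by at most 0.16 between group means.

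The member values also differed between arrays of 1 group. Against each gene's mean over all arrays, the median of the 50 genes was -0.20, -0.01 and -0.08 on HDAd-gE3 replicates 2, 3 and 4, was 0.02, 0.08 and 0.13 on HDAd-0 replicates 3, 4 and 5, and lay between -0.02 and 0.02 on the PBS arrays. By this median HDAd-gE3 replicate 3 lay within the range of the PBS arrays, though not gene by gene. Its Ccl24 value of 5.83, for one, was below every PBS value. HDAd-gE3 replicate 2 gave the lowest of all values for 13 of the 50 genes, where 14.9% of all genes had theirs there. With HDAd-gE3 replicate 2 and HDAd-0 replicate 4 both left out, the median of HDAd-gE3 against HDAd-0 was -0.12, and the number of genes under an unadjusted p of 0.05 was 12. By group, HDAd-0 had the highest mean for 27 of the 50 genes (42.9% of all genes) and HDAd-gE3 the lowest for 26 (41.9%).

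**Figure D5:**
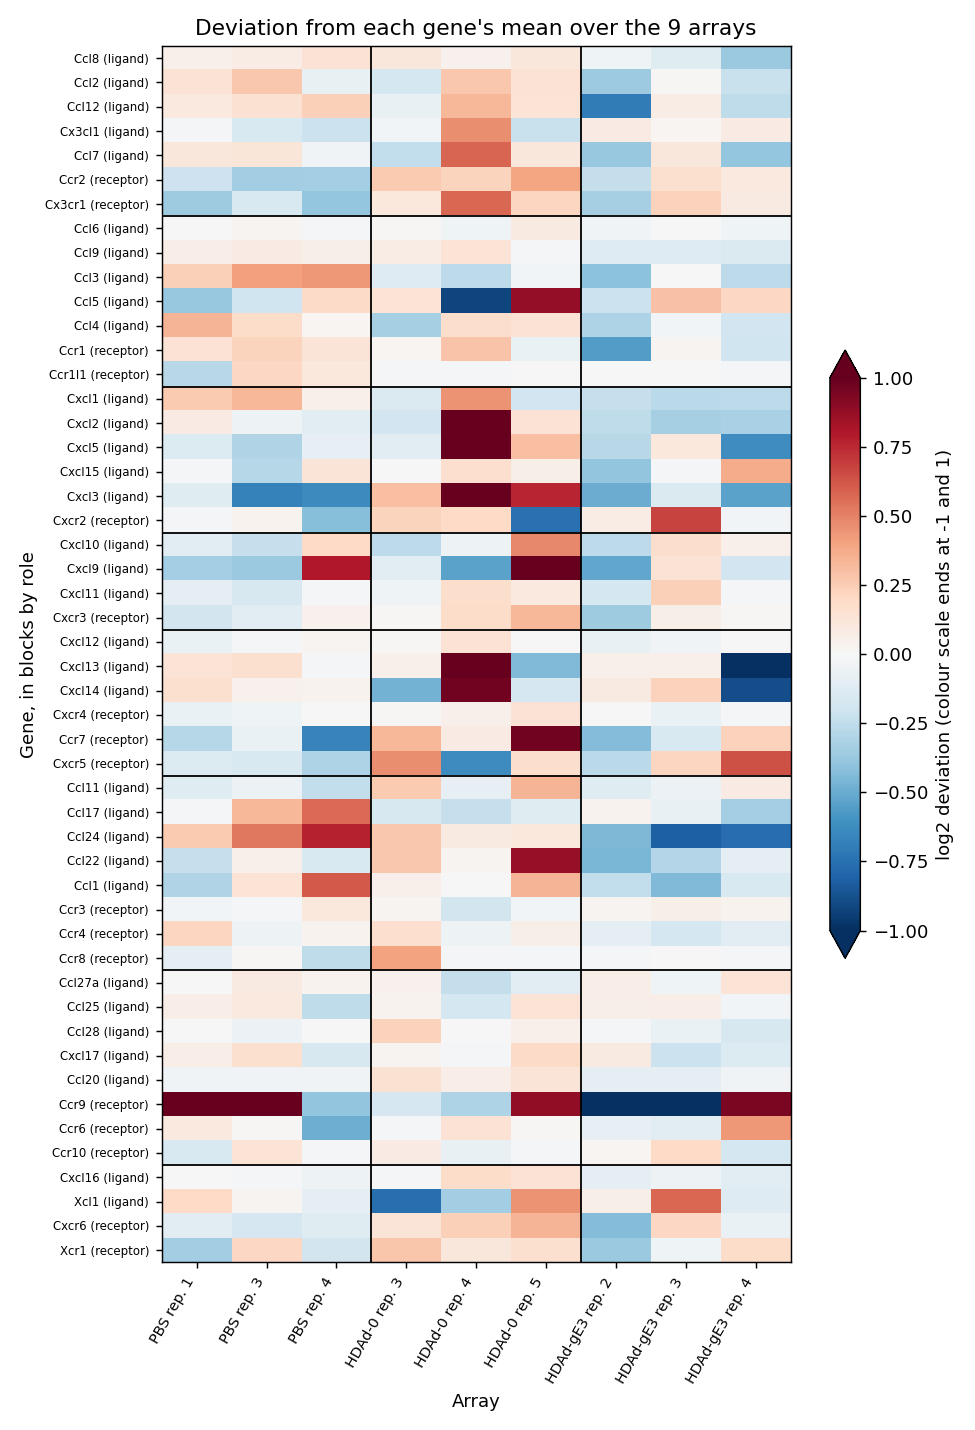
Deviation of each log2 signal from its gene's mean over the 9 arrays (colour, ending at -1 and 1), with genes in blocks by role (vertical axis) and arrays by group (horizontal axis). HDAd-0 replicate 4 is the reddest column in the block of Cxcl1, Cxcl2, Cxcl5, Cxcl15, Cxcl3 and Cxcr2 (median deviation 0.75), and Ccl24 is blue on all 3 HDAd-gE3 arrays.

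Genes that carry chemokine signals inside the cell were lower with HDAd-gE3 than with HDAd-0 for 18 of 19, by a median of -0.14, with 6 at an unadjusted p under 0.05, where 61.7% and 9.40% of all genes were lower. They were higher with HDAd-0 than with PBS for 17 of 19, with 3 at that threshold, where 57.6% and 8.50% of all genes were higher, and 0 passed the adjusted threshold in either comparison. Pik3cg, the kinase that leukocyte chemokine receptors switch on, differed by -0.22 ± 0.06 between the vectors (adjusted p = 0.255), and Arrb2, an arrestin that ends receptor signalling, by -0.26 ± 0.08 (adjusted p = 0.265). Dock2, which drives leukocyte migration through Rac, gave -0.28 ± 0.11 on its brightest probe set but 0.05 on the mean of its probe sets and 0.31 on the one with the largest SD. Against PBS, Pik3r5, the regulatory subunit of that kinase, differed by -0.38 ± 0.11 with HDAd-gE3 (adjusted p = 0.223), and Fgr and Rac2 by 0.24 ± 0.10 and 0.18 ± 0.07 with HDAd-0.

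Of 10 atypical receptors and relatives, 5 were higher and 5 lower with HDAd-gE3 than with HDAd-0. Ackr1, which carries chemokines across venular endothelium, read 8.37, 8.40 and 8.12 with PBS, 8.72, 8.70 and 8.84 with HDAd-0 and 8.43, 8.38 and 8.40 with HDAd-gE3. HDAd-0 lay above all other arrays, by 0.46 ± 0.08 against PBS (unadjusted p = 0.000515, adjusted p = 0.127), and HDAd-gE3 differed from HDAd-0 by -0.35 ± 0.08 (adjusted p = 0.207). Endothelial markers were highest in the same group, as given above for Cx3cl1. Cklf, a small chemotactic protein outside the family, differed by -0.34 ± 0.08 between HDAd-gE3 and PBS (adjusted p = 0.155). HDAd-0 against PBS gave -0.19 ± 0.08 for Cklf, but its probe set with the largest SD gave 0.54 and 0.02.

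Cytokines, their receptors and factors that switch chemokine genes on or restrain that switch were lower with HDAd-gE3 than with HDAd-0 for 17 of 18, with 3 at an unadjusted p under 0.05 and a median of -0.11, where 61.7% and 9.40% of all genes were lower. Tnfaip3, an NF-kB target that restrains NF-kB, differed by -0.38 ± 0.10 (adjusted p = 0.24), Nfkb2 by -0.25 ± 0.08 and Fos by -0.16 ± 0.06. The Nfkb2 difference lay between -0.33 and -0.09 under the alternatives. With HDAd-0 against PBS 15 of 18 were higher, with 4 higher and 1 lower at that threshold, where 57.6% of all genes had a higher mean and 8.50% were higher and 4.39% lower at it. Among them were Fos at 0.23 ± 0.06, Irf1 at 0.28 ± 0.09 and Relb at 0.42 ± 0.14. The 1 lower gene was Tlr4, the receptor for endotoxin, at -0.20 ± 0.07 (unadjusted p = 0.0222, adjusted p = 0.309). Tlr4 read 11.00, 11.06 and 11.10 with PBS, 10.89, 10.90 and 10.76 with HDAd-0 and 10.58, 10.78 and 10.72 with HDAd-gE3, below PBS on every HDAd-gE3 array by -0.36 ± 0.07 (adjusted p = 0.105). Under the alternatives run on it, that difference lay between -0.40 and -0.05. Il1b differed from PBS the other way with both vectors, by 0.41 ± 0.16 with HDAd-gE3 and 0.43 ± 0.16 with HDAd-0. Between the vectors it differed by -0.01.

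Enzymes that shed or trim chemokines were mixed. Adam10, which cuts Cx3cl1 and Cxcl16 from the cell surface, differed by -0.19 ± 0.05 between the vectors (adjusted p = 0.261), and by -0.21 to -0.05 under the alternatives. Dpp4, which clips the ends of several chemokines, was 0.64 ± 0.19 higher with HDAd-0 than with PBS (adjusted p = 0.24). Mmp9 and Ctsg, both of neutrophil granules, were 0.77 ± 0.32 and 1.81 ± 0.61 higher with HDAd-gE3 than with PBS, in step with the neutrophil markers above, and Ctsg reached 7.96 on HDAd-gE3 replicate 4 against 4.26 to 5.66 elsewhere.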

How the data were processed

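RNA of 9 pools of aortas (3 groups of 3 pools) was hybridised to Affymetrix mouse arrays after FL-Ovation labelling, per the labels' protocols. The deposited table held log2 signals of 45101 probe sets. Per the submitters' processing notes it came from RMA, of a version not stated in the labels or the table. The log2 scale was inferred from the range of the values.

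Gene names came from the platform annotation: 34945 probe sets had 1 gene, of which 34741 matched RefSeq genes, and 932 had several and were left out. The brightest probe set stood for each of 18193 genes. Linear models over all 9 arrays (limma 3.58.1, R 4.3.3, lmFit and eBayes, 6 residual degrees of freedom) gave differences, and the Benjamini-Hochberg adjustment ran over all genes, with a threshold of 0.05. An unadjusted p is limma's own p before that step. The models were tested on simulated data. With 3 arrays a group, the smallest exact permutation p is 0.1. Pools come from separate aortas, so p-values measure the spread between pools.

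The genes, role lists, markers and tests were chosen with earlier results of these data known. The rule named up to 8 genes per comparison and direction with the smallest p, the 10 brightest, known ligand and receptor pairs, genes whose probe sets disagree, and up to 3 genes of each further list. Of 199 further list and marker genes, 179 had a value, and the others are not analysed here. Cxcl2, Cxcl5, Cxcl9, Cxcl14, Ccr9, Ccl4 and Ccl7 were named after their values were seen. Summed marker signals are log2 of the sum of linear signals. Promoter windows came from RefSeq (GRCm38.p6, 250 bases before the start searched, 120 printed).

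Each result was recomputed with median centring, with quantile normalization over genes, without genes below the median level, with the mean or the most variable of a gene's probe sets, on only the 2 groups compared, with the replicate number as a block, with array weights, with a trend of spread on intensity, with the 3' minus 5' signal as covariate, and without each array in turn. Leaving out HDAd-0 replicate 4 and HDAd-gE3 replicate 2 together was chosen after seeing the data.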

Additional observations from a re-analysis of the deposited data

How the results depend on the processing

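With 3 arrays per group, only large or very even differences can pass; 0 members passed in HDAd-gE3 against HDAd-0 or in HDAd-0 against PBS under any alternative. In HDAd-gE3 against PBS the count of 1 became 0 with only the 2 groups compared, with the replicate block, with the 3' minus 5' covariate and with HDAd-0 replicate 4 and HDAd-gE3 replicate 2 both left out, 5 with array weights (Ccl24, Ccl3, Ccl9, Cxcl1 and Ccr2) and 2 with an intensity trend, and lay between 0 and 1 without 1 array. With dim genes left out the 1 gene was Ccl3, since Ccl24 was not tested.

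In HDAd-gE3 against HDAd-0 the 13 members past the unadjusted threshold became 6 without dim genes, 8 with only the 2 groups compared, 5 with the replicate block and 8 with the covariate, and lay between 7 and 17 without 1 array. The 11 of HDAd-0 against PBS became 4 without dim genes and 6 with the block, and lay between 6 and 14. The 11 of HDAd-gE3 against PBS became 7 both without dim genes and with the covariate, and lay between 5 and 13. The member median of -0.19 in HDAd-gE3 against HDAd-0 was -0.12 with the block and -0.12 with the 2 arrays left out. That of -0.03 in HDAd-gE3 against PBS was -0.24 without dim genes. Fewer genes are tested without dim genes; the cause of the other shifts was not tested. The groups share only replicate numbers 3 and 4, no label says that a number marks a batch, and deviations of same-numbered arrays correlated between -0.046 and 0.10 across genes, so the block pairs arrays by number only.

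Of the values for single genes, 4 reversed with another probe set: Dock2 in HDAd-gE3 against HDAd-0 (0.0454 with the mean of probe sets and 0.31 with the largest SD), and Cklf with the largest SD (0.0157 in HDAd-0 against PBS and 0.54 in HDAd-gE3 against PBS). Another 1055 kept direction and side of the adjusted threshold, 11 passed it newly and 12 lost it. Apart from Ccl24 in HDAd-gE3 against PBS, these values started above that threshold. Staying on that side therefore says little about the size of a difference. Among the alternatives, Ccr2 in HDAd-gE3 against HDAd-0 went as near to 0 as -0.06, and Adam10 there as -0.05. Tlr4 in HDAd-gE3 against PBS went to -0.05.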
